A study of Caenorhabditis elegans with 12 samples.

Results

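The 12 libraries of this study carry sample numbers 1 to 4 within each of 3 exposure groups, and the comparison described here sets the 6 libraries numbered 1 and 3 against the 6 numbered 2 and 4. Every library of the series is thus a member, with 2 libraries of each class in each exposure. The split was chosen by the expression values themselves: earlier results on the same libraries showed genes that parted by sample number. Its sizes and directions are therefore given as descriptions and are not tested, and only measures that the choice did not use are tested. The labels do not say what a sample number stands for, such as a day, a batch of animals or a position on a plate.

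The study asked whether an exposure of ancestors leaves a trace in the gonads of later generations of Caenorhabditis elegans. P0 animals spent 48 h in water, in 0.1% dimethyl sulfoxide (DMSO, the solvent) or in 100 µM bisphenol A (BPA, a component of plastics), and adult F3 animals were dissected with needles for their gonads. All animals were kept on OP50 bacteria at 20 °C, and a strain or genotype is not given in the sources used here. Library water 1 is the water library with sample number 1, and the other libraries are named in the same way. Nothing in the labels states that libraries of 1 exposure came from separate cultures. Each p-value therefore reflects only how far these samples scatter, and that scatter may be technical.

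The adult hermaphrodite gonad is a tube of germ cells that runs from mitotic stem cells through meiosis to growing oocytes, wrapped by a thin somatic sheath that contracts like muscle and ends at the spermatheca. The X chromosome is known to be held nearly silent through most of the germline, by repressive chromatin in the mitotic and early meiotic zones, with some X-linked transcription in late oogenesis, while the somatic tissues express X-linked genes throughout. Yolk proteins are made by the intestine and taken up by oocytes through a receptor, so their transcripts mark intestine rather than gonad. A dissected gonad can hold more or less of the sheath, of the spermatheca and of neighbouring tissue.

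Levels are given in RPKM, reads scaled to the length of the transcript and the size of the library, and differences as the mean of log2(RPKM + 1) in numbers 1 and 3 minus that in numbers 2 and 4, with exposure as a term. A gene is called separated when, in each of the 3 exposures, both libraries numbered 1 and 3 lay on the same side of both numbered 2 and 4, and parted when it was separated and differed by at least 1. Of 40961 gene names, 7570 reached 1 RPKM in 4 or more of the 12 libraries and were compared. Estimated depth averaged 19.9 ± 6.99 M reads in numbers 1 and 3 and 19.6 ± 3.33 M reads in numbers 2 and 4 (mean ± SD, n = 6 each). The difference of 0.302 M reads was within the spread (exact permutation test within exposures, two-sided, p = 0.917 over 216 arrangements, smallest possible p = 0.00926). Without DMSO 3, the deepest library, it was -2.32 M reads (same exact test, p = 0.324), and without DMSO 2 it was -0.24 M reads (p = 0.935). These depths are rough: from 23.9% (DMSO 1) to 27.4% (DMSO 2) of low values lay within 0.1 of a whole number of reads. Values with no such steps would give a share not far below this, so the test compares uncertain estimates. Library water 1 stood apart from the other 11 on the first principal component, which held 20.8% of the variance: its loading was -0.914, and those of the others lay between -0.097 and 0.268. The second component (17.5%) ordered the libraries by sample number. Its loadings ran from -0.013 to 0.509 for numbers 1 and 3 and from -0.387 to -0.166 for numbers 2 and 4. Number 3 alone lay at 0.353 to 0.509 and number 1 at -0.013 to 0.192.

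In numbers 1 and 3, 699 genes were separated upward (9.23% of those compared), and 72 were separated the other way (0.951%). Of these, 92 were parted with numbers 1 and 3 higher (1.22%) and 5 with numbers 2 and 4 higher (0.0661%). For 79 of the 92, the lowest of all 6 libraries numbered 1 and 3 lay above the highest of all 6 numbered 2 and 4. On average 4551 of the 7570 genes (60.1%) were higher in numbers 1 and 3. Since the split was chosen on these values, these shares describe it and support nothing further. The excess of genes higher in numbers 1 and 3 depended on scaling. The median over all genes was 0.07 as deposited, -0.06 after centring each library on its median and -0.03 after quantile normalization, a shift of more than 0.1 with centring. The separated genes then numbered 365 against 250 and 260 against 201, and the parted genes 45 against 13 and 34 against 8. Without water 1 the counts were 1087 against 201 separated and 166 against 8 parted, and without BPA 1 they were 146 against 8 parted. The genes separated upward in numbers 1 and 3 were mostly low: their median level was 3.62 RPKM, and 578 of 699 had a mean below 10 RPKM, against 3308 of all 7570 genes. The 72 higher in numbers 2 and 4 had a median of 39.7 RPKM. At the size asked of a parted gene, inx-3, unc-119 and nhr-71 lay just inside, each at 1.00, and daf-5, F39C12.1 and C33A12.4 just outside, each at 0.99.

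The gene that parted most was C44B7.5 on chromosome II, a protein-coding gene for which no role is given here. It reached 613 and 814 RPKM in numbers 1 and 3 of water, against 56.3 and 19.6 RPKM in the other pair. In DMSO the values were 371 and 692 RPKM in numbers 1 and 3 and 12.5 and 23.8 RPKM in numbers 2 and 4. In BPA they were 350.0 and 1215 RPKM against 9.16 and 57.3 RPKM. The 6 high libraries thus did not overlap the 6 low ones, and the difference of 4.64 (SE 0.47) was of like size in water (4.36), DMSO (4.80) and BPA (4.75). It lay between 4.31 and 4.94 under every alternative setting tried.

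**Figure D1:**
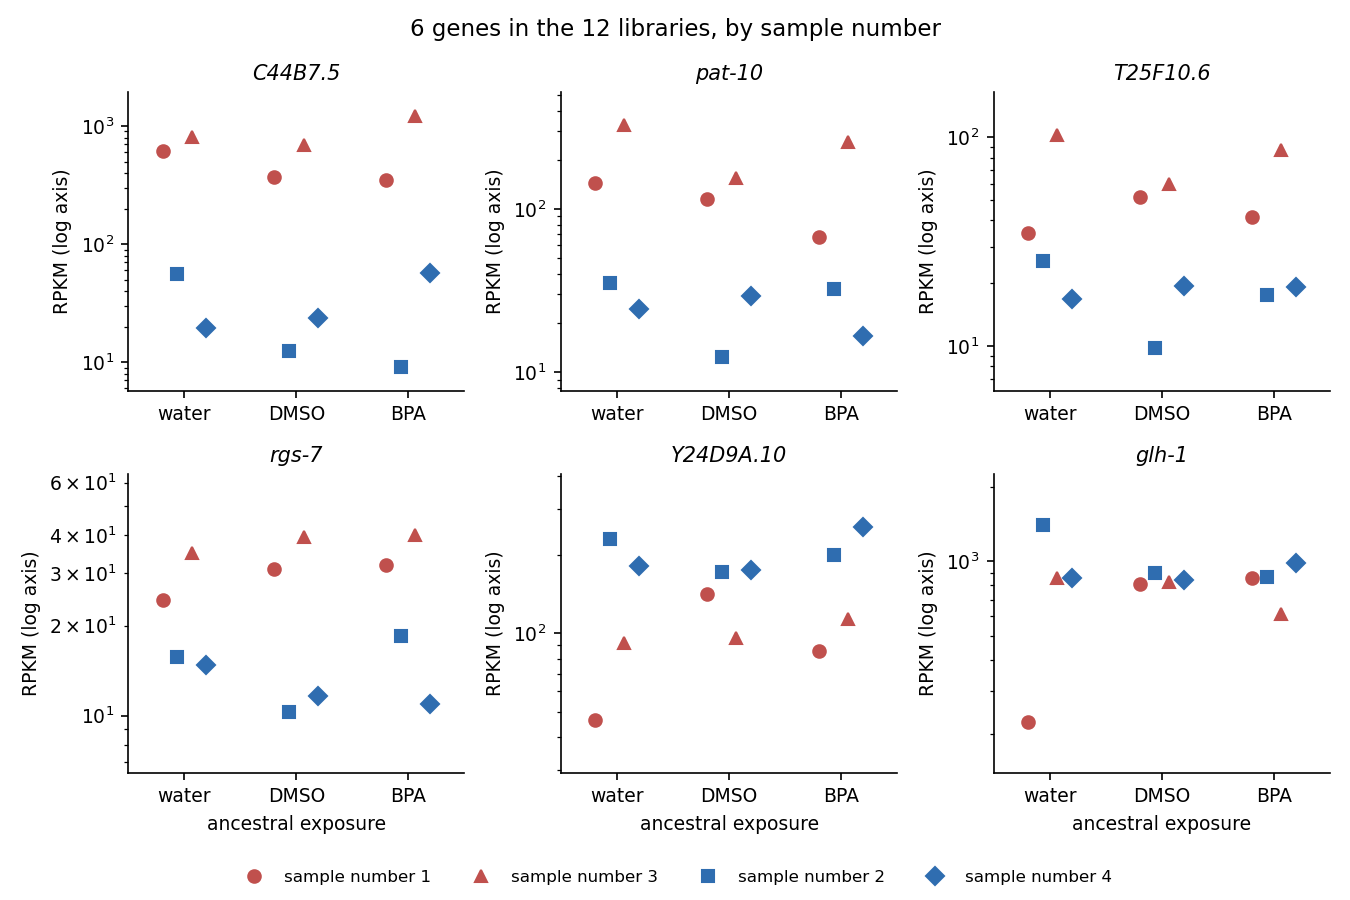
RPKM on a log axis (each panel with its own range) of 6 genes in each of the 12 libraries, grouped by ancestral exposure; circles and triangles are sample numbers 1 and 3, squares and diamonds 2 and 4. C44B7.5, pat-10, T25F10.6 and rgs-7 lay higher in all 6 libraries numbered 1 and 3, Y24D9A.10 lay lower in all 6, and glh-1 is spread by water 1 (223 RPKM) and water 2 (1409 RPKM).

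The muscle gene pat-10, which encodes troponin C, the calcium sensor of the thin filament, had the largest difference of any parted gene in a gene list. It was measured at 145, 325, 115.4, 156, 67.6 and 256 RPKM in numbers 1 and 3 of water, DMSO and BPA, in that order. In numbers 2 and 4 it was measured at 35.2, 24.3, 12.4, 29.5, 32.3 and 16.7 RPKM. All 6 values of the first set lay above all 6 of the second (2.68, SE 0.36). The troponin T gene mup-2, on the X chromosome, stood at 5.68 to 15.8 RPKM in numbers 1 and 3 (median 9.12) and 2.43 to 4.81 RPKM in numbers 2 and 4 (median 3.88), a difference of 1.09 (SE 0.18).

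Among parted genes alone at their locus and averaging at least 5 RPKM, F08G2.15 (3.06) lay between C44B7.5 and pat-10 (2.68). Behind pat-10 came ZK354.3 (2.58), C29F5.1 (2.47), T26A8.2 (2.23) and T25F10.6 (1.69). F08G2.15 and these 4 are all autosomal, with no role given here. F08G2.15 is annotated as a non-coding RNA and the other 4 as protein-coding. ZK354.3 ranged from 11.2 to 232 RPKM in numbers 1 and 3 (median 24.1) and from 2.29 to 7.79 RPKM in numbers 2 and 4 (median 3.81), and its highest value was in water 3. T25F10.6 ranged from 34.7 to 103 RPKM (median 55.8) and from 9.80 to 25.5 RPKM (median 18.4). F08G2.15 was listed at 0 in 5 of the 6 libraries numbered 2 and 4 and at 8.09 RPKM in water 4. Under the same limits the next were the tetraspanin gene tsp-8 (1.48), B0281.5 (1.37), rgs-7 (1.25), the short-chain dehydrogenase gene dhs-25 (1.25) and hke-4.2 (1.204). rgs-7, which encodes a regulator of G protein signalling, stood at 24.4 to 40.1 RPKM (median 33.4) against 10.3 to 18.4 RPKM (median 13.2), with no overlap.

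The X chromosome set the numbers apart most broadly. Of 830 X-linked genes compared, 763 were higher on average in numbers 1 and 3, 311 were separated in that direction (37.5%, against 9.23% of all genes) and 0 in the other. The median difference of X-linked genes was 0.60, with the middle 50% of genes between 0.35 and 0.77. The 6593 autosomal genes had a median of 0.04, with 366 separated upward (5.55%) and 71 the other way (1.08%). That balance turned with scaling, to 179 upward against 241 after centring and 142 against 192 after quantile normalization. Single autosomes had medians from 0.01 (chromosome III) to 0.09 (chromosome V). X-linked genes made up 45.9% of the 677 separated genes with a known chromosome that were higher in numbers 1 and 3, and 11.2% of all compared genes with a known chromosome. In the opposite set 0 of 71 were X-linked.

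**Figure D2:**
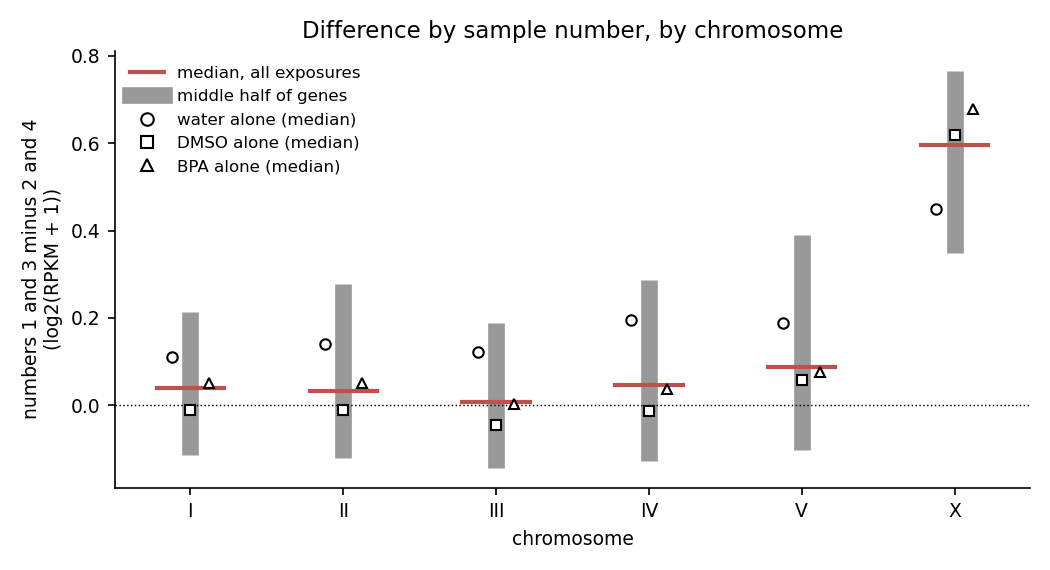
Difference between sample numbers 1 and 3 and sample numbers 2 and 4 on the log2(RPKM + 1) scale for the genes of each chromosome: red lines are medians over genes, grey bars span the middle 50% of genes, and open symbols are the medians in water, DMSO and BPA alone. The X chromosome lay at 0.60, and each autosome had a median from 0.01 to 0.09.

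The X-linked median of single libraries showed the same division. The median over the X-linked genes was 4.37 and 4.08 RPKM in numbers 1 and 3 of water, against 2.51 and 2.79 RPKM in the other pair. In DMSO it was 4.00 and 4.26 RPKM against 2.38 and 2.29 RPKM, and in BPA 3.75 and 4.78 RPKM against 2.55 and 2.19 RPKM. The 6 higher libraries began at 3.75 RPKM, above the 2.79 RPKM at which the 6 lower ones ended. The share of all summed signal on the X chromosome did overlap. It was 3.47% to 8.94% in numbers 1 and 3 and 2.36% to 4.19% in numbers 2 and 4. In BPA 1 it was 3.57%, below the 3.94% of BPA 2. The autosomal medians of the 2 classes overlapped, with 18.3 to 22.2 RPKM in numbers 1 and 3 and 17.1 to 20.3 RPKM in numbers 2 and 4. Exposure, with 3 levels, accounted for a median of 4.99% of the sum of squares of an X-linked gene. The division by sample number, with 2 levels and chosen on these values, accounted for 50.7%. Over all genes the shares were 9.52% and 9.37%. Sample number taken as 4 levels held 63.9% on the X chromosome and 34.5% over all genes. Terms with more levels take up more, so these shares are not on the same footing.

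**Figure D3:**
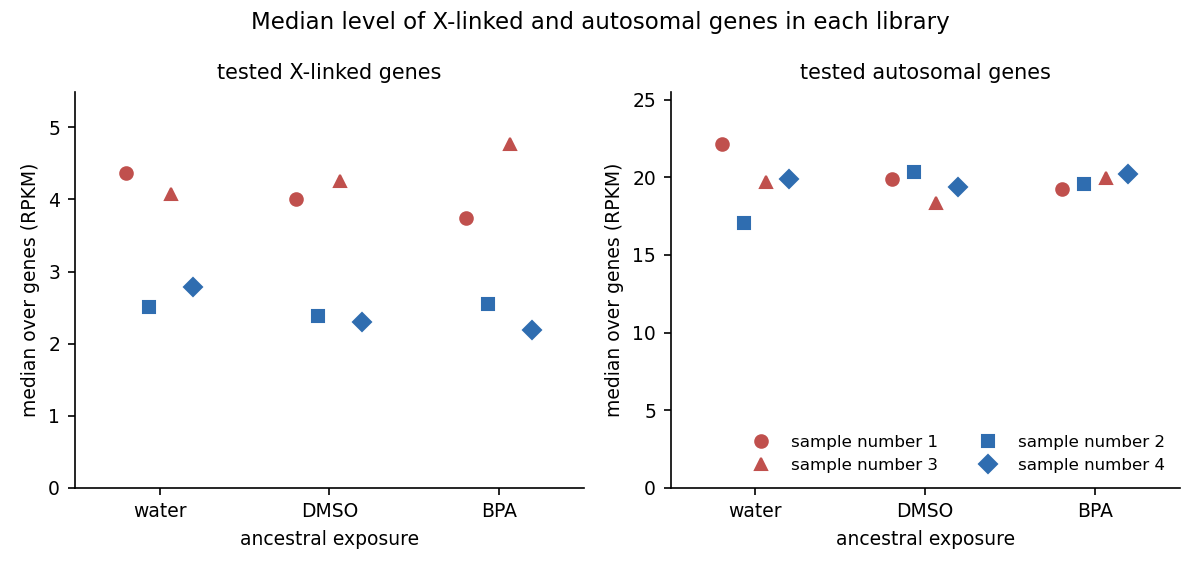
Median RPKM over the 830 X-linked genes (left) and the 6593 autosomal genes (right) in each library, by ancestral exposure, with symbols for the sample number. On the left the circles and triangles of numbers 1 and 3 (3.75 to 4.78) lie above the squares and diamonds of numbers 2 and 4 (2.19 to 2.79), and on the right the classes overlap.

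The X-linked difference was 0.45 in water, 0.62 in DMSO and 0.68 in BPA. It was 0.47 after centring and 0.31 after quantile normalization, where the autosomal medians were -0.09 and -0.05, so that X-linked genes stayed above the autosomes by 0.56 and 0.36 on each scale. Leaving out any single library gave 0.55 to 0.62. With the filter on low values removed it was 0.04. The separated X-linked genes numbered 173 after centring, 109 after quantile normalization and 438 without water 1, with 4, 7 and 0 in the opposite direction.

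X-linked genes are low in these gonads, at a median of 3.37 RPKM against 20.7 RPKM on the autosomes, so the difference was also followed by level, with bins chosen after the values were seen. Among autosomal genes the median was 0.21 below 2 RPKM, 0.24 from 2 to 5 RPKM, 0.19 from 5 to 10 RPKM, 0.04 from 10 to 20 RPKM and between -0.01 and -0.11 above that. Among X-linked genes it was 0.43 below 2 RPKM and between 0.62 and 0.76 in each bin from 2 to 100 RPKM, with 12 genes in the bin from 50 to 100 RPKM. The 10 X-linked genes of at least 100 RPKM had a median of 0.37. At every level the X-linked median lay above the autosomal one, and low autosomal genes also stood higher in numbers 1 and 3. The filter asked for 1 RPKM in 4 libraries, so a low gene could pass through the 6 libraries of 1 class alone. nhr-28 did so, at 1.18 to 1.93 RPKM in numbers 1 and 3 and 0.36 to 0.68 RPKM in numbers 2 and 4. The low bins thus partly hold genes admitted because they were high in 1 class, and their medians are descriptions only.

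**Figure D4:**
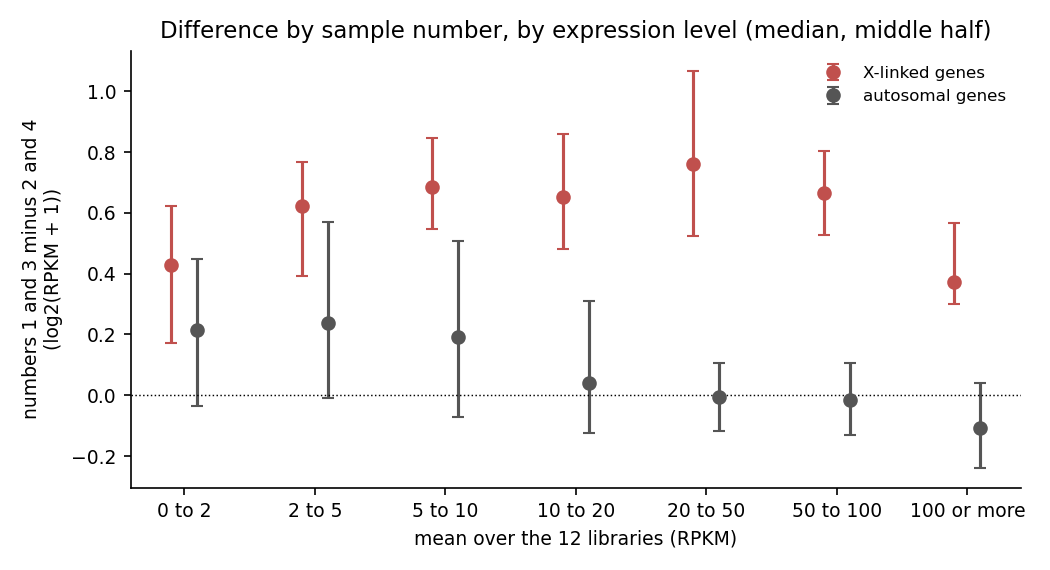
Median difference between sample numbers 1 and 3 and sample numbers 2 and 4 (log2(RPKM + 1)) for X-linked and autosomal genes in bins of mean RPKM over the 12 libraries; bars span the middle 50% of genes. Autosomal medians lay at 0.24 or less and passed below 0 from 20 RPKM upward, and X-linked medians lay between 0.37 and 0.76.

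Among the better expressed X-linked genes that parted, tag-18 stood at 53.6 to 95.7 RPKM in numbers 1 and 3 (median 71.9) and 26.6 to 36.6 RPKM in numbers 2 and 4 (median 33.7). The cyclophilin gene cyn-8 stood at 29.3 to 44.9 RPKM against 13.1 to 19.7 RPKM. The heparan sulfate 2-O-sulfotransferase gene hst-2 stood at 24.7 to 53.2 RPKM against 13.8 to 22.7 RPKM. These 3 were picked out after their values were seen, and in none of them did the classes overlap. Of the 37 parted X-linked genes, others encode the thymosin beta homologue tth-1 (1.13), the clathrin adaptor subunit dpy-23 (1.01), the sorting nexin snx-1 (1.02), the Abl tyrosine kinase abl-1 (1.05), the autophagy protein atg-2 (1.11) and the LIM homeobox factor lim-6 (1.19).

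The genes that read and act on the number of X chromosomes in early embryos were examined next, with the members beyond the listed complex picked after their values were seen. Of 14 compared condensin and dosage compensation genes 5 were separated with numbers 1 and 3 higher (35.7%, against 9.23% of all genes) and 0 the other way. The list median was 0.14 (0.01 after centring). The count was 3 after centring and 2 after quantile normalization. Of the 5 genes separated as deposited 2 are X-linked, and 37.5% of all X-linked genes were separated upward. These 5 were dpy-27, the condensin subunit particular to dosage compensation (0.91), sdc-3 (0.76), sdc-1 (0.74) and sdc-2 (0.65), which bring the complex to the X chromosome or act with those that do, and kle-2 (0.44), a condensin subunit that shares its locus. dpy-27 ranged from 7.54 to 11.4 RPKM in numbers 1 and 3 and from 3.52 to 5.31 RPKM in numbers 2 and 4. The core subunit mix-1, which serves several condensins, stood at a mean of 163 RPKM and differed by -0.02 (SE 0.12). Among the genes that signal the X to autosome ratio, sex-1, a nuclear receptor, was parted (1.14, SE 0.14), at 5.93 to 8.76 RPKM against 2.22 to 3.44 RPKM. The T-box gene sea-1, an autosomal signal, was parted as well (1.12, SE 0.26), at 4.07 to 12.8 RPKM against 1.54 to 4.26 RPKM, ranges that overlapped. The RNA-binding gene fox-1 was separated (0.82), and the homeobox gene ceh-39 was neither (0.45).

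Among the somatic lists, that of muscle genes had the most separated members. Of 36 compared markers of body wall and pharyngeal muscle 32 were higher on average in numbers 1 and 3, with a median of 0.58, and 10 were separated upward (27.8%, against 9.23% of all genes and 17.9% of genes of 5 to 10 RPKM), with 0 the other way. The muscle list has a median level of 5.19 RPKM, and 5 of its 10 separated genes are X-linked. Over all somatic lists, 9 of 152 autosomal genes were separated upward (5.92%, against 5.55% of all autosomal genes), and 10 of 36 X-linked genes (27.8%, against 37.9% of X-linked genes in no somatic list). In a bulk sample, fewer cells of a type and less RNA per cell cannot be told apart. Besides pat-10 and mup-2, the 10 hold the troponin I genes tni-3 (0.98) and tni-1 (0.57), the myosin heavy chain gene myo-3 (0.73), the calsequestrin gene csq-1 (0.83), the ryanodine receptor gene unc-68 (0.56) and dim-1 (0.77), unc-97 (0.62) and pat-12 (0.62). Most were low: myo-3 stood at 0.81 to 1.71 RPKM in numbers 1 and 3 and 0.16 to 0.69 RPKM in numbers 2 and 4. It thus passed the filter through numbers 1 and 3 alone. Summed over the whole list, the muscle level was 1382 to 2121 RPKM (median 1814) against 1390 to 1730 RPKM (median 1600), so the sums overlapped. After centring 7 of the 36 were separated (median 0.45), after quantile normalization 4 (0.29), and without water 1 there were 18.

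The sheath and the spermatheca belong to the gonad. Of 22 compared sheath and gap junction genes 4 were separated, at a median of 0.41 (-0.02 in water, 0.45 in DMSO, 0.49 in BPA), and of 10 spermatheca markers 3 were separated, at a median of 0.51. Over all genes 9.23% were separated upward. In the sheath list 3 of the 4 and in the spermatheca list all 3 separated genes are X-linked, and after centring 3 and 0 were separated, after quantile normalization 2 and 0. pat-10 and mup-2 are also in the sheath list. The gap junction gene inx-8, expressed in the sheath, stood at 65.9 to 118 RPKM in numbers 1 and 3 and 49.0 to 92.0 RPKM in numbers 2 and 4, an overlap. Its germline partner inx-14 stood at 72.7 to 204 RPKM against 166 to 246 RPKM (-0.29, SE 0.23). The filamin gene fln-1, the highest of the spermatheca list, differed by -0.37 (SE 0.25), while the spermathecal non-muscle myosin gene nmy-1, on the X chromosome, was separated (0.73). Both lists lay near 0 when restricted to members averaging 10 RPKM or more, at 0.05 and -0.10.

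Yolk protein genes had the largest median of any list and were not separated. All 5 compared vitellogenin genes were higher on average in numbers 1 and 3 (median 1.69), but their sum was highest in number 3 of each exposure. It was 917 RPKM in DMSO 3, 248 RPKM in water 3 and 109 RPKM in BPA 3. In the other 9 libraries it was 17.4 to 80.8 RPKM. The median was 2.03 in water, 3.40 in DMSO and -0.07 in BPA. vit-2 stood at 4.97 to 184 RPKM in numbers 1 and 3 and 3.61 to 22.7 RPKM in numbers 2 and 4 (1.68, SE 0.75). Of 23 compared intestine markers 20 were higher and 0 were separated. Their median was 0.55, with 0.75 in water, 1.204 in DMSO and -0.09 in BPA. Summed over the whole list, the intestine level was likewise highest in number 3, at 338 (water), 589 (DMSO) and 207 RPKM (BPA). In the other 9 libraries it was 122.5 to 171 RPKM.

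Other somatic lists gave smaller values. Cuticle collagens had a median of 0.35 (24 of 35 higher, 1 separated in each direction), which was -0.01 after quantile normalization. The molting gene mlt-10 of the hypodermis parted, at 3.98 to 4.81 RPKM against 1.29 to 2.13 RPKM (1.08, SE 0.12), and the list median was 0.32 (2 of 14 separated). Of 6 compared neuron markers 1 was separated, unc-119, which parted at 2.51 to 9.69 RPKM against 1.16 to 2.01 RPKM. That list's median was 0.13, and it was -0.12 after quantile normalization. Basement membrane and coelomocyte lists lay at 0.20 (1 of 12 separated, 8.33%) and 0.23 (1 of 10, 10.0%), shares near the 9.23% of all genes. The upward shares of the hypodermis, neuron and collagen lists were 14.3%, 16.7% and 2.86%, each resting on 1 or 2 genes. Lysozymes and C-type lectins (33 compared) lay at a median of 0.29, with 0 separated upward and 1, spp-15, the other way.

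**Figure D5:**
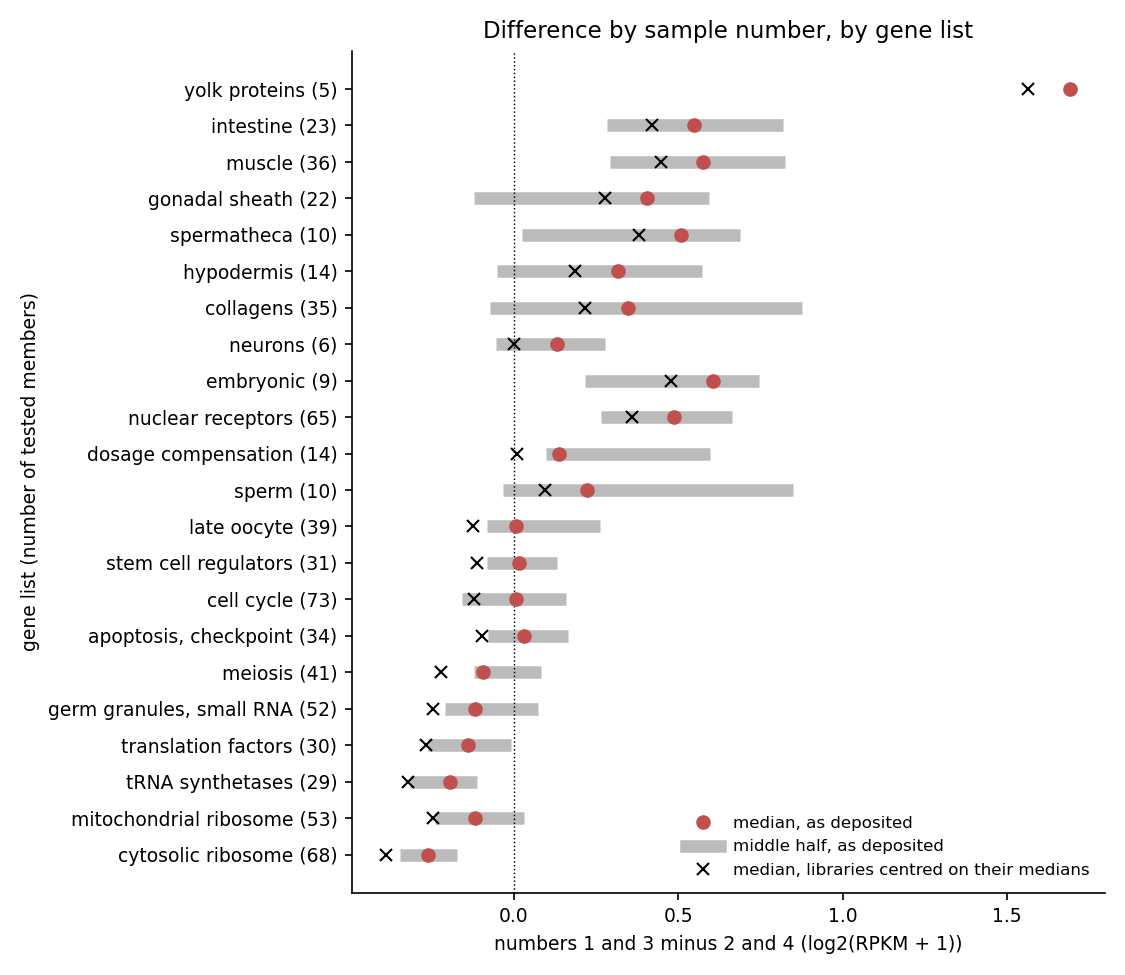
Median difference between sample numbers 1 and 3 and sample numbers 2 and 4 (log2(RPKM + 1)) for 22 gene lists, with the number of compared members in parentheses: filled points are values as deposited, grey bars span the middle 50% of members, and crosses are medians after centring each library on its median. As deposited, somatic lists lay to the right of 0 and translation lists to the left, and centring moved every list by the same -0.13.

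Nuclear hormone receptors, a large family of ligand-regulated transcription factors, held more separated genes than any other list. Of 65 compared members 58 were higher in numbers 1 and 3 and 21 were separated, 16 of them autosomal, with 0 the other way and a median of 0.49. Their shares of 89.2% higher and 32.3% separated stand against 60.1% and 9.23% of all genes, and against 78.8% and 21.3% of genes of 2 to 5 RPKM. After centring the median was 0.36 with 14 separated, and after quantile normalization it was 0.20 with 9 separated and 1, not counted before, the other way. The parted members were sex-1, nhr-2 (1.02) and nhr-71 (1.00). nhr-2 stood at 3.99 to 5.15 RPKM in numbers 1 and 3 and 1.23 to 2.60 RPKM in numbers 2 and 4. Like the muscle markers these genes were low, at a median of 2.36 RPKM, and members with a mean of at least 10 RPKM had a median of 0.10. A low member could pass the filter through numbers 1 and 3 alone, as nhr-28 did. Genes that are switched on in early embryos had a median of 0.61, with 3 of 9 separated: the zinc finger gene die-1 (0.75), the T-box gene tbx-11 (0.92) and the bHLH gene ref-1 (0.66).

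Of the 6 families grouped after their values were seen, 5 had medians above 0 and kinesins lay below. Against 9.23% of all genes separated and 60.1% higher, 6 of 20 compared homeobox genes of the ceh class were separated (median 0.49), and 2 after centring. Of 8 genes of the RGS family, 5 of them X-linked, 4 were separated and all 8 were higher (0.49). Of 12 innexins 3 were separated (0.35), 2 of them X-linked. After centring 1 innexin was separated upward, and after quantile normalization 0, with 1 the other way. Of 23 autophagy genes 5 were separated (0.16, and 0.03 after centring). Of 9 kinesin genes of the klp class 3 were higher and 0 were separated, at a median of -0.24 (-0.36 after centring, -0.25 after quantile normalization). Of 20 compared chemoreceptor genes 5 were separated, with srx-88 (1.48), srt-33 (1.29) and srg-64 (1.27) parted, each below 6 RPKM in every library. In the germline RAS-MAPK list, which carries the signal for meiotic progression, 22 of 23 genes were higher, at a median of 0.20. Separated were 5, gap-2, pdk-1, soc-1, ksr-1 and soc-2 (21.7%), and 3 of these are X-linked. After centring 16 were higher and 2 separated (median 0.07). After quantile normalization 16 were higher and 3 separated (0.12). Of 66 lipid metabolism genes 10 were separated upward (15.2%, against 9.23% of all genes), of which dhs-25, dhs-19 and lbp-1 parted, and 1, dhs-12, the other way. The counts were 5 against 4 after centring, where the median of 0.14 became 0.01, and 3 against 2 after quantile normalization. The detoxification genes cyp-13B2 (1.21, a cytochrome P450) and mrp-8 (1.05, an ABC transporter) were parted, while their lists lay at 0.14 (-0.10 after quantile normalization) and -0.03.

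Germline lists had medians from -0.12 (germ granule and small RNA genes) to 0.22 (sperm genes), against 0.07 over all genes. Late oocyte regulators had a median of 0.01 with 20 of 39 higher (51.3%, against 60.1% of all genes and 32.2% of those of at least 100 RPKM). Of the 39, 2 were separated upward (5.13%, against 9.23% and 1.17%). These were perm-2 (0.57), which serves the eggshell barrier, and zif-1 (0.30), an adaptor for protein degradation. After centring 1 was separated in each direction, and after quantile normalization 3 upward and 0 the other way. perm-2 was measured at 2080 to 3199 RPKM in numbers 1 and 3 and 1440 to 2101 RPKM in numbers 2 and 4. rme-2, which encodes the yolk receptor, ranged from 633 to 2275 RPKM against 1459 to 2591 RPKM (-0.10, SE 0.30), an overlap in which the lowest value was water 1. The eggshell proteoglycan gene cpg-3 differed by -0.11 (SE 0.22). Stem cell regulators had a median of 0.02 with 0 of 31 separated, and the poly(A)-binding protein gene pab-1, the highest of them, differed by -0.61 (SE 0.41), with -1.60 in water and 0.02 in DMSO. The oocyte genes puf-5 (-4.63, SE 1.88) and oma-2 (3.64, SE 1.84), an RNA-binding protein gene each, differed by more but were not separated. Both share a locus with another name, and they were listed at 0 in 3 and 5 libraries; they were picked out after their values were seen. The oocyte, stem cell and cell cycle lists changed sign with scaling, at -0.12, -0.11 and -0.12 after centring, and at 0.08, -0.02 and -0.02 after quantile normalization.

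Meiosis genes had a median of -0.09 with 16 of 41 higher, and 1 was separated, him-19, lower in numbers 1 and 3 (-0.32). The chromatin protein gene lab-1, the highest of the list, differed by 0.10 (SE 0.16). Germ granule and small RNA genes had a median of -0.12, with 18 of 52 higher (34.6%, against 49.5% of genes of 20 to 50 RPKM). Of the 52, 7.69% were separated upward (9.23% of all genes) and 3.85% the other way (0.951%). Of the 4 separated with numbers 1 and 3 higher, 3 are X-linked: the nuclear Argonaute gene nrde-3 (0.97), the germ granule gene meg-2 (0.90) and the microRNA Argonaute gene alg-1 (0.73). The other was the autosomal Argonaute gene sago-1 (0.91). The 2 separated the other way were wago-2 (-0.37), a member of the Argonaute family that the annotation lists as a pseudogene, and the helicase gene glh-1 (-0.59, SE 0.33). glh-1 was measured at 223 RPKM in water 1, against 613 to 855 RPKM in the other 5 libraries numbered 1 and 3 and 839 to 1409 RPKM in numbers 2 and 4. The cell cycle list lay at 0.01, with 6 of 73 separated (8.22%, against 9.23% of all genes), and 1 against 2 after centring. Among the 6 were cyb-1 (0.30) and cyb-3 (0.24), both cyclin B genes, and the X-linked cdk-4 (0.93). Among all germline lists, the 8 X-linked members were all higher in numbers 1 and 3, at a median of 0.81, with 4 separated.

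Sperm genes told water 3 from all other libraries rather than the classes from each other. The 30 major sperm protein genes summed to 259 RPKM in water 3 and to 0 to 13.96 RPKM in the other 11 libraries, and 0 of them passed the filter. Of 10 compared other sperm genes 0 were separated (median 0.22). The summed sperm list stood at 419 RPKM in water 3 and at 78.7 to 134 RPKM elsewhere.

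Lists of translation genes had medians below 0. So did all genes of at least 100 RPKM, at -0.10 with 32.2% higher in numbers 1 and 3. Genes of 50 to 100 RPKM lay at -0.01 with 47.5% higher. The median level was 474 RPKM in the cytosolic ribosomal list and 90.6 RPKM in that of aminoacyl-tRNA synthetases. Of 68 compared cytosolic ribosomal protein genes 7 were higher in numbers 1 and 3, with a median of -0.26 (-0.39 after centring, -0.21 after quantile normalization). The list was at 0.29 in water, -0.41 in DMSO and -0.58 in BPA. Its sum was 35320 to 50630 RPKM in numbers 1 and 3 and 49270 to 66180 RPKM in numbers 2 and 4, and water 1 held the highest value of the first set. rpl-4 was separated (-0.47), at 234 to 492 RPKM against 453 to 614 RPKM. rpl-12 was parted (-1.40, SE 0.60) but shares its locus. Of 29 aminoacyl-tRNA synthetase genes 1 was higher in numbers 1 and 3 and 0 were separated, at a median of -0.19. Translation factors lay at -0.14, mitochondrial ribosomal protein genes at -0.12 and the nuclear-encoded respiratory chain at -0.11, each below 0 after quantile normalization as well. In water alone the mitochondrial ribosomal list lay at 0.36 and the respiratory chain at 0.08. In the respiratory chain 4 of 33 genes were separated upward (12.1%, against 9.23% of all genes): asb-2, gas-1, ucr-2.1 and ucr-2.2. All 4 are among the 6 X-linked members of the list, and 37.5% of all X-linked genes were separated upward. After centring 3 were separated upward and 4 the other way, and after quantile normalization 3 and 0. Beyond rpl-12, the genes parted with numbers 2 and 4 higher were F57B10.5 and Y65B4BL.7, which also share loci, the collagen gene col-80 (-1.52), and Y24D9A.10 on chromosome IV. Y24D9A.10 stood at 46.6 to 142 RPKM in numbers 1 and 3 (median 93.8) and 172 to 255 RPKM in numbers 2 and 4 (median 190.4), with no overlap (-1.13, SE 0.22).

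Among the chromatin genes, utx-1, an X-linked H3K27 demethylase gene named in the study's title, was not separated (0.87, SE 0.21). Its median was 5.86 RPKM in numbers 1 and 3 and 2.37 RPKM in numbers 2 and 4, and it differed by 0.18 in water, 1.17 in DMSO and 1.26 in BPA. The H3K9 and H3K36 demethylase gene jmjd-2 differed by 0.21 (SE 0.10), at 40.9 to 53.9 RPKM against 34.3 to 48.7 RPKM. Of 11 compared demethylase genes 1 was separated upward, amx-1 (0.82), and 1 the other way, jmjd-4 (-0.37, sharing its locus), at a list median of 0.17. The upward share of 9.09% was near the 9.23% of all genes, and after quantile normalization 0 were separated in either direction. Histone methyltransferases and heterochromatin readers had a median of 0.12 (-0.01 after centring), with 4 of 34 separated (11.8%, near the share of all genes). These were the X-linked set-12 (0.96), hpl-1 (0.68) and set-6 (0.65), and the autosomal met-1 (0.35). Of all X-linked genes 37.5% were separated upward. After centring 2 of the 34 were separated, and after quantile normalization 1.

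Whether the difference by sample number was itself different between exposures was tested, because the choice of the split did not use it. With limma's moderated F test over the interaction of exposure and sample number, 6 of 7570 genes had a Benjamini-Hochberg adjusted p under 0.05 (0.0793%), and 318 had an unadjusted p under 0.05. Data were simulated with 7570 genes and, for each gene, normal noise of equal spread in all libraries. There the same test recovered 1.04% of differences of 1, 32.7% of differences of 2 and 69.8% of differences of 3 on the log2 scale. Small differences between exposures were thus mostly beyond its reach even without outlying libraries. Without water 1, DMSO 1, BPA 1 or BPA 3 the count was 14, 11, 12 and 13, and without water 3 it was 666, where water 1 alone stood for numbers 1 and 3 of water and was assumed to vary like the other groups. By pairs of exposures 4 genes were called between BPA and water, 3 between DMSO and water and 4 between BPA and DMSO.

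praf-3, a gene of the PRA1 family of Rab-associated proteins, was the called gene that is alone at its locus. In water its level was 27.8 and 15.3 RPKM in numbers 1 and 3, against 0.42 and 0.56 RPKM in the other pair. In DMSO it stood at 22.98 and 14.5 RPKM in numbers 1 and 3, at 0.43 RPKM in DMSO 2 and was listed at 0 in DMSO 4. In BPA the order was turned, with 5e-06 and 0.54 RPKM in numbers 1 and 3, against 15.8 and 21.6 RPKM in numbers 2 and 4. The difference was 3.87 in water, 4.01 in DMSO and -3.97 in BPA (limma adjusted p = 0.000918, up to 0.0525 over the alternatives).

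The other 5 genes share a locus with a neighbour. C27F2.9 was listed at 0 in water 2 and 4 and at 353 to 528 RPKM in the other 10 libraries (limma adjusted p = 2.32e-05). Its neighbour vps-22, which encodes an endosomal sorting protein, stood at 236 and 242 RPKM in those 2 libraries and at 43.1 to 69.9 RPKM elsewhere. The RNA polymerase II subunit gene rpb-4 was likewise listed at 0 in water 2 and 4 and at 11.7 to 22.1 RPKM elsewhere (9.13e-05), while its neighbour F43E2.1 was highest there, at 22.9 and 23.5 RPKM. The early endosome GTPase gene rab-5 was listed at 0 in water 2, in DMSO 1 and 3 and in BPA 2 and 4, and at 4.4 RPKM in water 4. Its difference was 4.51 in water, -5.85 in DMSO and 5.099 in BPA (limma adjusted p = 0.00384). K02B12.7 took the same signs, at 0.82, -2.74 and 2.85 (0.0156), and Y65B4BL.3 differed by 0.00, -0.57 and -4.66 (0.0023). Summed over the locus, the signal of rab-5 and uev-3 ranged from 43.1 to 106 RPKM and that of C27F2.9 and vps-22 from 236 to 587 RPKM. With values summed per locus 1 locus was called, and among genes alone at their locus 1 gene.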

How the data were processed

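The authors deposited 1 transcript table per library, with values in RPKM in 11 tables and FPKM in 1 (BPA 1), per the file headers. The submitters' processing notes name HISAT, StringTie and build ce10, without versions, and nothing used here gives the counting options. Gonad RNA was amplified with SMART-Seq v4, made into Nextera XT libraries from 1 ng of cDNA and read single-end at 50 bp, per the labels' protocols. No step that keeps strand is named, so values of antisense or overlapping genes and of near-identical copies are uncertain. A listed 0 may be an estimate that failed.

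Values were summed per gene name (49201 transcripts, 40961 names, 279 unnamed transcripts left out) and set to log2(value + 1), which understates differences of low genes. RPKM and FPKM were treated alike, since reads are single-end. Genes needed at least 1 RPKM in at least 4 libraries, so a low gene could pass through 1 class alone. Chromosomes came from the Ensembl annotation by name (98.1% of compared genes). It is of a build other than the files', so no coordinates were used. Of the compared genes 1302 share a locus with another name. The files hold no counts. Depth was estimated roughly from the steps of low values, with transcript lengths of the Ensembl annotation, and was 13.98 to 33.04 M reads.

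Sample groups came from the titles. The members and gene lists were chosen with earlier results of these data known, and 6 lists, the X chromosome and the bins of level were added after values were seen. The difference by sample number was fitted with limma 3.58.1 in R 4.3.3 with exposure as a term, for its size and SE alone. The interaction of exposure with sample number used limma's moderated F test with Benjamini-Hochberg adjustment over all genes, and was tested on simulated data (10 runs, 5.76% false calls). Tables and figures used Python 3.11.15, pandas 2.3.3 and matplotlib 3.10.9.

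Named genes were, among parted genes alone at their locus with a mean of at least 5 RPKM, the 12 with the largest difference in each direction, then for each list up to 3 parted members or, with none, the 1 with the highest mean, then utx-1, jmjd-2, pat-10, C44B7.5, rme-2, glh-1 and vit-2, and the genes called for the interaction. Other genes were named after their values were seen. Alternatives changed the pseudocount, the filter, the treatment of shared loci, the scaling, the size asked, the libraries used and the replicate block.

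Whether sample numbers pair libraries across exposures was checked on deviations from the exposure means. Same-numbered libraries correlated at -0.0675 to 0.34 (median 0.093), above 0 in 11 of 12 pairs and over 0.1 in 5. Libraries of the other number of their class had a median of 0.0428, above 0 in 9 of 12 pairs. Those of the other class had a median of -0.0794, above 0 in 6 of 24 pairs. A tie by number was thus present but weak, and the numbers were not taken to pair the samples.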

Additional observations from a re-analysis of the deposited data

Results flagged for a closer look

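Of 144 sets of 6 libraries of 1 class, 32 held a library far from the other 5 by Dixon's test, where chance gives about 1 in 20. Most were water 1, which also stood apart on the first principal component. In RPKM, water 1 was the lowest of numbers 1 and 3 for cpg-3 (1479), pab-1 (1307), glh-1 (223.1), ani-2 (88.97), sir-2.1 (65.49), erm-1 (38.56), fln-1 (125.6), rme-2 (632.8) and utx-1 (2.896). It was also the lowest for mrps-30 (67), eef-1G (4084), tars-1 (80.54), atp-2 (492.7), rpn-9 (128.1), sna-1 (295.5), xbp-1 (123.1), ugt-64 (49.55), clec-87 (6361) and fbxc-50 (101.8), and the highest for lab-1 (600.7).

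In the other libraries the values were single. Water 2 stood apart among numbers 2 and 4 for glh-1 (1409 RPKM), mix-1 (215.6 RPKM), rme-2 (2591 RPKM), 21ur-13590 (0.4975 RPKM) and estimated depth (26.25 M reads). Water 3 stood apart for B0281.5 (23.84 RPKM) and mlt-10 (3.981 RPKM), and water 4 for F08G2.15 (8.088 RPKM). DMSO 3 stood apart for cec-3 (561.0 RPKM) and estimated depth (33.04 M reads), BPA 2 for spe-5 (52.8 RPKM) and BPA 3 for hsp-1 (1478 RPKM).

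The difference by sample number itself differed between exposures for 6 genes, by limma's interaction test with Benjamini-Hochberg adjustment. The adjusted p was 2.32e-05 for C27F2.9, 9.13e-05 for rpb-4, 0.000918 for praf-3, 0.0023 for Y65B4BL.3, 0.00384 for rab-5 and 0.0156 for K02B12.7. Over the alternatives it reached 0.000553, 0.00352, 0.0525, 0.715, 0.0355 and 0.0919 in the same order.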

How the results depend on the processing

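The count of genes parted with numbers 1 and 3 higher, 92, was 316 with a pseudocount of 0.1 and 12 with 5, 18 among those averaging 10 RPKM or more, 45 after median centring, 34 after quantile normalization, 699 with no size asked and 8 with a size of 2. The opposite count, 5, was 3 with a pseudocount of 5, 3 at a mean of at least 10 RPKM, 2 with values summed per locus and 2 among genes alone at their locus, 13 after centring, 8 after quantile normalization, 72 with no size asked, 1 with a size of 2 and 2 where all 6 had to lie apart from all 6. Leaving out 1 library gave 82 to 166 and 5 to 9. The 6 interaction calls became 13 with no filter on low values and 1 under either treatment of shared loci, and 7 to 666 on leaving out 1 library, with 14 without water 1 and 666 without water 3. The cause was not tested. Depth differed by -2.32 to 1.63 M reads on leaving out 1 library, with the sign turned without DMSO 2 (-0.24) and DMSO 3 (-2.32).

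The replicate block, with sample number as a term of 4 levels, gave 92, 5 and 6. The first 2 could not move, since the order within exposures and the mean difference are the same with or without it in this balanced design. Of the 12 libraries, 6 correlated best with one of their own number and 9 with one of their own class. The 43 named genes that did not part changed sign in 83 of 1020 settings; the sign of a parted gene is largely fixed by its choice. Gene list medians changed sign in 109 of 1103 settings. Values moved by more than their spread in 106 gene settings and 17 list settings, among them nuclear hormone receptors at 0.02 with no filter and 0.10 at a mean of at least 10 RPKM. Depth was estimated, and 1 RPKM of a short transcript rests on few reads, which limits low values.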
